A study of Homo sapiens and Mus musculus with 30 samples.

Results

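The gene studied here is HIST1H2BJ, which encodes a histone H2B, together with 6 other human histone genes that are known to yield polyadenylated transcripts besides the usual ones: HIST1H2BK, HIST1H2BD, HIST2H2BE, HIST1H2AC, HIST1H1C and HIST1H4C. They were picked by symbol, and HIST1H2BJ heads them because it rose with LIN28B in HEK293A total RNA and polysome RNA. That rise therefore chose the gene, and its values are given as a description with no test. Of the 7 genes, 5 were among the 11342 genes tabulated across the LIN28B levels, and all 7 were among the 57820 genes tabulated for cells given let-7a. The table of levels keeps a gene only where every total RNA library reached 1 RPKM (reads per kilobase and per 1e6 reads), and HIST2H2BE and HIST1H4C are not in it.

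HEK293A cells derive from human embryonic kidney, and NIH3T3 cells are mouse fibroblasts. Both were set at 5 levels of LIN28B by a transgene induced with doxycycline at 10 ng/ml. X0 is a LIN28B knockout per the series design, and X1, X2, X3 and X4 carry increasing LIN28B; the NIH3T3 titles name no knockout. A level gave 1 total RNA library and 1 polysome RNA library, the latter from RNA bound by ribosomes. HEK293A X0 cells were also transfected with mature let-7a at 10 nM, giving 1 library of each fraction. Small RNA of the knockout and of X3, with and without let-7, was sequenced in 8 libraries of total small RNA or of small RNA bound by AGO2. No level had a replicate, so intervals below cover counting error only. The transgene's promoter, its vector, its coding sequence and the number of clones behind a level were all not given in the sources used here.

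Histone genes used in S phase make messenger RNAs that end in a stem-loop bound by SLBP and carry no poly(A) tail. A subset of them, often in cells that have left the cycle, also yields spliced or longer transcripts that end at a downstream polyadenylation site. The libraries were made with a kit that selects polyadenylated RNA, so tailless histone messenger RNA is largely outside the measurement. LIN28B, a protein that binds RNA, is best known for keeping let-7 microRNAs from maturing.

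The HEK293A total RNA libraries of the level series held 37.7 to 56.0 M reads (M, 1e6) and those of polysome RNA 9.09 to 14.6 M, as recovered from the RPKM steps. The let-7a libraries held 35.1 and 7.39 M. Each NIH3T3 library held at least 15.9 M. Of 7 markers of HEK293 cells, VIM, KRT18, KRT8, NEFL and LHX1 were above 1 RPKM in all 5 total RNA libraries. From X0 to X4 VIM went from 171 to 104 RPKM in total RNA and NEFL from 14.4 to 23.4. In the let-7a total RNA library LHX1 stood at 0.400 RPKM, and PAX2 (0.0450 RPKM) and NEFM (0.0513) were near 0. Of 4 pluripotency markers in that library, SOX2 stood at 12.9 RPKM and POU5F1, NANOG and LIN28A were listed at 0.

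The stretches just before the transcription start are shown because they are what a chromosomal HIST1H2BJ would be transcribed from, and because they can be set beside those of the other genes. RefSeq promoters (GRCh38.p14) were found for 4 of the 7 genes. HIST1H2BK, HIST1H2BD and HIST1H4C were not matched. Each line holds the 150 bases upstream of the start, on the gene's own strand, and capitals mark any match, on either strand, to the octamer bound by OCT1 (ATTTGCAT), to the core of a TATA box (TATAAA) or to the box bound by NF-Y (CCAAT). No 2 of these motifs overlap in the 4 windows.
HIST1H2BJ (chr6:27132796-27132945, minus strand): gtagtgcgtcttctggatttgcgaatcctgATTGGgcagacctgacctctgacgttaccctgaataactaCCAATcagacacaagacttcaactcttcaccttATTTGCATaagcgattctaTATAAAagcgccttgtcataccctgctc
HIST2H2BE (chr1:149886683-149886832, minus strand): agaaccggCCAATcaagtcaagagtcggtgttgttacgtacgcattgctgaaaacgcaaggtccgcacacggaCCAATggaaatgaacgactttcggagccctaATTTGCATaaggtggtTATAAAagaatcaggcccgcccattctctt
HIST1H2AC (chr6:26124022-26124171, plus strand): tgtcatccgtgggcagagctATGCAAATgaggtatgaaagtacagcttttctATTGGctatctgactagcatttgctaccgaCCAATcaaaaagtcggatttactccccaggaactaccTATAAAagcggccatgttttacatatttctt
HIST1H1C (chr6:26056471-26056620, minus strand): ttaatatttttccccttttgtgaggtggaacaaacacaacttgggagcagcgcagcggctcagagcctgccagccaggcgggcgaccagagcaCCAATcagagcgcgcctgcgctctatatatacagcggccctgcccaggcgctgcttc

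The octamer was present in 3 of these 4 promoters, TATAAA in 3 and CCAAT in 4. Among all 35116 RefSeq promoters, windows of the same 150 bases held the octamer in 0.988%, TATAAA in 6.71% and CCAAT in 23.5%. In HIST1H2BJ the octamer began 47 bases and the TATA match 28 bases before the start. HIST2H2BE, the other H2B promoter shown, had them 46 and 30 bases before its start. HIST1H1C, which encodes a linker histone, had neither. No match says only that these letters are not in the window, and none of the matches was tested for binding. HIST1H2BJ lies head to head with HIST1H2AG, a histone H2A gene, and 253 bases of their 300-base RefSeq promoter windows are the same sequence read from opposite strands.

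In total RNA, HIST1H2BJ stood at 2.12, 36.4, 56.3, 159 and 365 RPKM from X0 to X4. These values rest on 94, 1522, 3502, 9168 and 17386 reads. The level was higher at each step, and the 95% counting interval at X4 (359.8 to 370.7 RPKM) lay far above that at X0 (1.71 to 2.59). The X4 value was 172-fold that of X0 (counting interval 141 to 213), and even X1 was 17.2-fold higher (13.9 to 21.4). In polysome RNA the same gene stood at 5.00, 16.2, 20.7, 40.8 and 71.0 RPKM from X0 to X4, on 68, 220, 208, 660 and 859 reads. It again rose at each step, but X4 was only 14.2-fold higher than X0 (11.1 to 18.5).

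LIN28B itself, the gene that defines the levels, stood at 3.60, 23.0, 33.4, 81.2 and 208 RPKM in total RNA. In polysome RNA it stood at 1.85, 12.4, 12.9, 22.3 and 39.8 RPKM. The labelled order held in both fractions, and reads of LIN28B were still present at X0. The kind of edit that made the knockout was not given in the sources used here. From X0 to X4 LIN28B was 57.8-fold higher in total RNA (53.9 to 62.1) and 21.5-fold higher in polysome RNA (18.0 to 25.9). HIST1H2BJ thus changed by more than LIN28B in total RNA. In polysome RNA its fold was the smaller one, with counting intervals that overlap.

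**Figure D1:**
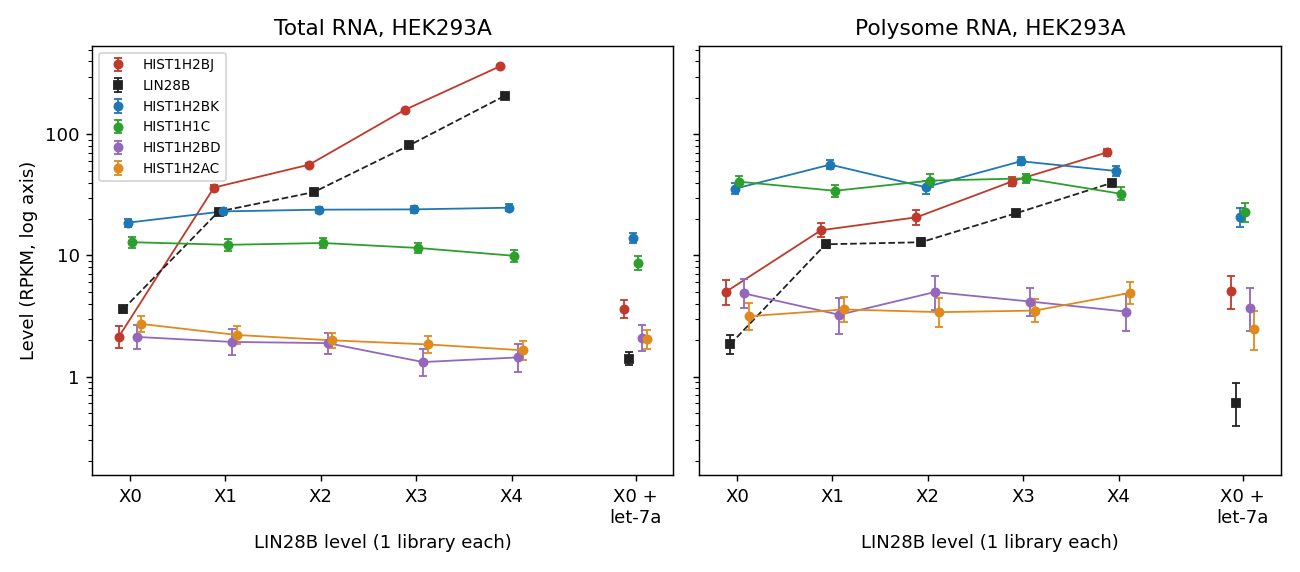
Levels of the 5 tabulated histone genes and of LIN28B in HEK293A, in RPKM on a log axis, by LIN28B level for total RNA (left) and polysome RNA (right), with the let-7a libraries of X0 apart. Points are single libraries, bars are 95% Poisson counting intervals, and HIST1H2BJ and LIN28B climb while the other 4 genes stay within 0.606-fold to 1.69-fold of X0 from X1 to X4.

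Neither of the other H2B genes tabulated across the levels, HIST1H2BK and HIST1H2BD, showed a rise of this size. HIST1H2BK, the nearest other H2B gene on the chromosome, stood at 18.7, 23.1, 23.9, 24.0 and 24.8 RPKM in total RNA, X0 first. All 4 libraries with LIN28B were above X0, and X4 was 1.33-fold higher (1.20 to 1.48), yet from X1 to X4 it stayed between 23.1 and 24.8 RPKM while HIST1H2BJ went from 36.4 to 365. In polysome RNA HIST1H2BK stood at 35.6, 56.3, 36.6, 60.0 and 49.8 RPKM, with no order by level. HIST1H2BD, a further H2B gene, stood at 2.13, 1.93, 1.89, 1.32 and 1.44 RPKM in total RNA and at 4.86, 3.24, 4.99, 4.17 and 3.44 in polysome RNA. It was the least deeply read of the 5 genes, with 34 to 96 reads a library across the levels, and its X4 value was 0.678-fold that of X0 in total RNA (0.472 to 0.969). HIST2H2BE was listed at 0 in both let-7a libraries.

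HIST1H2BJ went from a minor to the major H2B transcript of the tabulated genes. Of the summed RPKM of HIST1H2BJ, HIST1H2BK and HIST1H2BD in total RNA, HIST1H2BJ made up 9.25%, 59.2%, 68.6%, 86.3% and 93.3% from X0 to X4. In polysome RNA its share was 10.996%, 21.4%, 33.2%, 38.9% and 57.2%. At X4 HIST1H2BK therefore still held much of the H2B signal on polysomes, though little of that in total RNA.

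The member genes outside the H2B family that were tabulated across the levels moved far less than HIST1H2BJ. HIST1H2AC, which encodes an H2A, stood at 2.72, 2.21, 1.99, 1.84 and 1.65 RPKM in total RNA, lower at each level. Its X4 value was 0.606-fold that of X0 (0.477 to 0.768). In polysome RNA it stood at 3.15, 3.58, 3.41, 3.51 and 4.91 RPKM, highest at X4. HIST1H1C stood at 12.9, 12.2, 12.7, 11.5 and 9.94 RPKM in total RNA and at 40.6, 34.2, 41.5, 43.3 and 32.3 in polysome RNA, lowest at X4 in both. HIST1H4C, an H4 gene, was at 0.135 RPKM in total RNA and 0.318 in polysome RNA of the let-7a pair. In bulk RNA, fewer cells that express a gene and less RNA per cell cannot be told apart.

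Straight lines over the 5 level ranks, fitted with limma to log2(RPKM + 0.5), put these values on one scale of log2 units per level. HIST1H2BJ gained 1.64 ± 0.17 (SE) in total RNA and 0.87 ± 0.07 in polysome RNA. LIN28B gained 1.31 ± 0.09 and 0.90 ± 0.13. The total RNA slopes of the other 4 members were 0.09 ± 0.03 for HIST1H2BK, -0.08 ± 0.03 for HIST1H1C, -0.13 ± 0.03 for HIST1H2BD and -0.14 ± 0.03 for HIST1H2AC. Their polysome slopes ran from -0.06 ± 0.07 for HIST1H2BD to 0.11 ± 0.06 for HIST1H2AC. In total RNA 2 of the 5 members had positive slopes and 3 negative ones. Of all 11342 genes 2.24% were called in total RNA at an adjusted p of 0.05 (1.48% upward and 0.758% downward), and of 10428 genes 61.1% in polysome RNA (21.7% upward and 39.3% downward). No call is given for the members, since they were chosen with this contrast in view.

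Whether the reads are of the cell's own gene cannot be settled with these data. Described next are 4 sets of values: the gain of HIST1H2BJ against that of LIN28B, its polysome share, its neighbours and its response to let-7a. The gains and the polysome share come from the same libraries that chose HIST1H2BJ, so they are descriptions and no test. The deposited tables hold 1 value a gene and no read positions. Reads of the chromosomal gene and reads of any other template with the same sequence cannot be told apart in them. H2B genes also have near-identical coding sequences, and the counting of reads shared between copies was not given in the sources used here.

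The gain over X0 followed that of LIN28B in total RNA, which the choice of the gene itself favours. From X1 to X4 HIST1H2BJ gained 34.3, 54.2, 157 and 363 RPKM, while LIN28B gained 19.4, 29.8, 77.6 and 204. Per RPKM of LIN28B gained, HIST1H2BJ gained 1.76 RPKM in the X1 library (counting interval 1.65 to 1.88). This ratio was 1.82 for X2 (1.74 to 1.90), 2.02 for X3 (1.97 to 2.08) and 1.78 for X4 (1.75 to 1.81). The gain itself went from 34.3 to 363 RPKM, whereas the ratio ranged from 1.76 to 2.02, with X3 above the intervals of the others. In polysome RNA the ratio was 1.06 for X1 (0.839 to 1.34), 1.42 for X2 (1.15 to 1.77), 1.75 for X3 (1.57 to 1.94) and 1.74 for X4 (1.60 to 1.90). It was lowest at X1 and about the same at X3 and X4, where it also lay near the total RNA ratios. HIST1H2BK, by contrast, gained 4.46, 5.23, 5.36 and 6.14 RPKM in total RNA at X1 to X4. RPKM divides by the whole gene's length, recovered as 1100 bases for HIST1H2BJ and 5505 for LIN28B, so the ratio is one of molecules only if reads cover both genes alike, which was not tested.

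**Figure D2:**
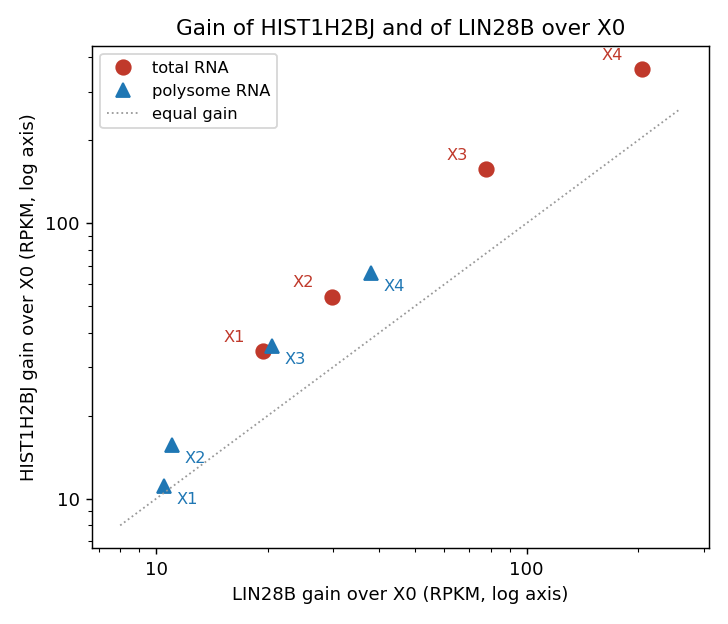
Gain of HIST1H2BJ over X0 against the gain of LIN28B over X0 in HEK293A, both in RPKM on log axes, for total RNA (circles) and polysome RNA (triangles), with each point 1 library minus the X0 library of its fraction. The total RNA points lie 1.76-fold to 2.02-fold above the dotted line of equal gain and the polysome points 1.06-fold to 1.75-fold above it.

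The polysome to total ratio of HIST1H2BJ lay among those of the other 4 members at X0 and near that of LIN28B from X1 to X4. At X0 the ratio of polysome RPKM to total RPKM was 2.36 for HIST1H2BJ (1.73 to 3.22), within the range of 1.16 to 3.16 of the other 4 members. LIN28B stood at 0.514 (0.426 to 0.620). From X1 to X4 the ratio of HIST1H2BJ was 0.444, 0.367, 0.256 and 0.195, and that of LIN28B was 0.537, 0.385, 0.275 and 0.191. The counting intervals of both genes overlapped at each of these 4 levels. The other 4 members stayed at 1.53 or above at X1 to X4, and at X4 they ranged from 2.01 to 3.25. Among them HIST1H2AC rose at each level, from 1.16 at X0 to 2.98 at X4. Histone genes outside the members did not all keep their ratio. From X0 to X4 HIST3H2A went from 7.33 to 1.83 RPKM in polysome RNA and from 3.10 to 2.00 in total RNA. HIST1H4H went from 1.17 to 2.38 and from 1.25 to 1.43. In fits of the log2 ratio over the levels (limma), 5 of 10 replacement histones fell and 1 rose. Of all genes 39.0% fell and 19.1% rose. Ratios of RPKM between fractions are relative to each library's reads, so a value above 1 does not mean that most copies were on ribosomes.

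The gains over X0 gave a lower polysome share for HIST1H2BJ than for LIN28B at X1. Of each RPKM that HIST1H2BJ gained in total RNA, 0.326, 0.289, 0.228 and 0.182 RPKM were gained in polysome RNA from X1 to X4. For LIN28B these values were 0.541, 0.370, 0.264 and 0.185. They fell with level for both genes and differed most at X1 and least at X4. In log2 units per level, occupancy, the log2 polysome minus the log2 total value, had a slope of -0.77 ± 0.12 (SE) for HIST1H2BJ and -0.41 ± 0.06 for LIN28B. Without the X0 libraries these slopes were -0.41 for HIST1H2BJ and -0.50 for LIN28B. The other members had occupancy slopes of 0.02 ± 0.07 for HIST1H2BK, 0.05 ± 0.05 for HIST1H1C, 0.07 ± 0.07 for HIST1H2BD and 0.25 ± 0.06 for HIST1H2AC. Over all 11125 genes 58.1% were called in occupancy (19.1% upward and 39.0% downward), and again no call is given for the members.

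**Figure D3:**
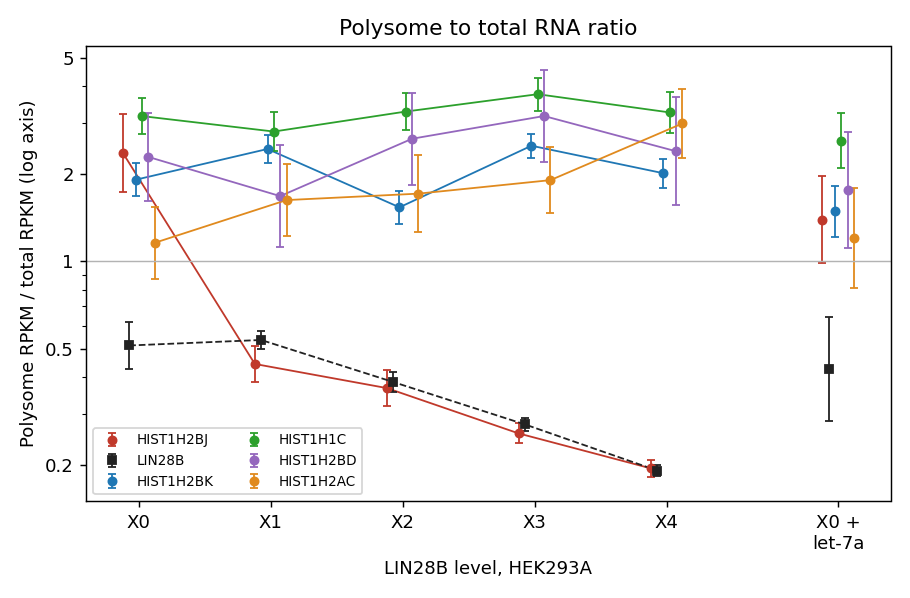
Ratio of polysome RPKM to total RPKM (log axis) by LIN28B level for the 5 tabulated histone genes and LIN28B in HEK293A, with the let-7a pair of X0 apart. Bars are 95% counting intervals. HIST1H2BJ starts at 2.36 among the other histone genes shown and ends at 0.195, beside LIN28B at 0.191.

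The genes beside HIST1H2BJ did not share its rise where they were tabulated. In RefSeq order the 5 genes on its HIST1H2AG side are HIST1H2AG, HIST1H2BK, HIST1H4I, HIST1H2AH and MIR3143. On its other side lie RNU2-62P, 2 transfer RNA genes, and the pseudogenes VN1R11P and VN1R13P. HIST1H2BK, whose values are given above, was the only 1 of these in the table of levels. HIST1H2AG, which shares the promoter stretch, stood at 1.27 RPKM in total RNA and 1.42 in polysome RNA of the let-7a pair, and the other neighbours in that table were below 1 RPKM in both. A neighbour below 1 RPKM in any total RNA library is not in the table of levels even if it rose later, and HIST1H2AG at X1 to X4 was not analysed here.

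Across the 11124 genes compared, LIN28B had the profile nearest to that of HIST1H2BJ by a measure that weighs the size of the changes. HIST1H2BJ was chosen for rising with LIN28B in these same libraries, so the choice itself favours this rank. It is given as a description and is no test. Likeness was the root mean square difference of log2 changes from X0 over 8 values, X1 to X4 in both fractions, on the log2(RPKM + 0.5) scale. It was 1.10 for LIN28B, the smallest. The next genes were HMGA2 at 2.91, CGA at 3.21, CDKN1A at 3.33, ARID3B and TP53I3 both at 3.39, CYP26A1 and NOTCH3 both at 3.48, NR6A1 at 3.49 and CTB-119C2.1 at 3.51. HMGA2, which encodes a chromatin protein and is a known let-7 target, changed by 1.60 log2 units in total RNA and 1.92 in polysome RNA from X0 to X4. HIST1H2BJ changed by 7.13 and 3.70, and LIN28B by 5.67 and 4.10. The 8 changes share the 2 X0 libraries. By shape alone the order among these 10 genes differed: over the same 8 values Pearson's r with HIST1H2BJ was 0.863 for LIN28B, 0.958 for NOTCH3, 0.912 for TP53I3 and -0.27 for HMGA2. After HIST1H2BJ (140-fold) and LIN28B (50.9-fold), the largest total RNA rise from X0 to X4 on this scale was the 3.54-fold one of CDKN1A, a cell-cycle inhibitor gene. In polysome RNA the gap was smaller, with LIN28B at 17.1-fold, HIST1H2BJ at 13.02-fold and ZNF92, a zinc finger gene, next at 5.93-fold.

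With mature let-7a given to X0 cells, HIST1H2BJ was higher and LIN28B lower in total RNA. These are 1 library against 1, from tables made separately, with no test. HIST1H2BJ stood at 3.62 RPKM with let-7a (142 reads) against 2.12 without, 1.71-fold higher (counting interval 1.31 to 2.24). LIN28B stood at 1.41 against 3.60, or 0.391-fold (0.340 to 0.449), and is itself a known let-7 target. In polysome RNA HIST1H2BJ stood at 5.05 against 5.00 RPKM (1.01-fold, 0.671 to 1.51) and LIN28B at 0.600 against 1.85 (0.324-fold, 0.202 to 0.501). With 0.5 RPKM added to each value, a rise of 1.5-fold or more in total RNA was seen for 9.58% of 11342 genes. A fall of that size was seen for 8.39%. On that scale HIST1H2BJ was 0.66 log2 units higher. In polysome RNA these shares were 26.5% and 15.3%.

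The other members were lower or little changed with let-7a. In total RNA the folds were 0.745 for HIST1H2BK (0.656 to 0.846), 0.679 for HIST1H1C (0.574 to 0.803), 0.749 for HIST1H2AC (0.590 to 0.947) and 0.985 for HIST1H2BD (0.699 to 1.39). In polysome RNA they were 0.580 for HIST1H2BK, 0.560 for HIST1H1C, 0.780 for HIST1H2AC and 0.757 for HIST1H2BD, while the median gene was 0.14 log2 units higher. The polysome to total ratio of HIST1H2BJ was 1.39 with let-7a (0.987 to 1.96), within the range of 1.21 to 2.60 of the other 4 members, and LIN28B was again lower at 0.426 (0.283 to 0.642). In both X0 pairs, with let-7a and without, the ratio of HIST1H2BJ thus lay among those of the other 4 members.

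Most other histone genes were low in these polyadenylated libraries. Of 89 HIST symbols in the let-7a table, 46 were listed at 0 in total RNA and 13 were at 1 RPKM or more. Apart from the members, HIST3H2A (H2A) and HIST1H4H (H4) were the only 2 in the table of levels. HIST3H2A went from 3.10 RPKM at X0 to 2.00 at X4 in total RNA, and HIST1H4H from 1.25 to 1.43. In total RNA 0 of these 2 were called by limma (1 at an unadjusted p below 0.05; 0 by the edgeR count test). In polysome RNA HIST3H2A stood at 7.33, 2.28, 3.96, 4.25 and 1.83 RPKM from X0 to X4. Its slope there was -0.27 ± 0.12 log2 units per level (limma, adjusted p = 0.0782). HIST1H4H rose in polysome RNA, by 0.24 ± 0.08 (limma, adjusted p = 0.0219), where 21.7% of all genes rose. It was low there, at 1.17, 1.33, 1.16, 2.83 and 2.38 RPKM. Its occupancy slope was 0.20 ± 0.08 (limma, adjusted p = 0.0433), where 19.1% rose, and this call was lost in the edgeR count test and without the X0 libraries.

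Most replacement histones are made also outside S phase, from ordinary polyadenylated messenger RNAs. As a list they were called about as often as all genes in polysome RNA and occupancy. Of the 10 measured, 0 were called in total RNA by limma or by the count test. There 6 of the 10 had an unadjusted limma p below 0.05, a larger share than the 2047 of all 11342 genes. All 6 of those slopes were negative. In polysome RNA 1 rose and 5 fell, where 61.1% of all genes were called. In occupancy 1 rose and 5 fell, where 58.1% of all genes were called, and the median slope was -0.15 against -0.07 over all genes. H2AFX, whose protein marks DNA breaks, fell in occupancy by 0.37 ± 0.07 log2 units per level (limma, adjusted p = 0.00334), with polysome RNA going from 159.9 RPKM at X0 to 44.0 at X4 and total RNA from 110.2 to 84.7. H2AFY2, a macroH2A gene, fell by 0.32 ± 0.05 and H1FX, a linker histone gene, by 0.34 ± 0.07. H2AFZ, the gene of H2A.Z, rose by 0.18 ± 0.04 (adjusted p = 0.00461), with polysome RNA going from 703 to 1119 RPKM. H1F0, a further linker histone gene, fell in polysome RNA by 0.33 ± 0.06 (limma, adjusted p = 0.00327). None of the 10 had the fold of HIST1H2BJ in either fraction.

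Factors that process histone or polyadenylated messenger RNA were measured in 16 of 16 cases. In total RNA 0 were called by limma (1 at an unadjusted p below 0.05; 0 by the count test), in polysome RNA 6 rose and 3 fell, and in occupancy 5 rose and 2 fell. Over all genes 21.7% rose and 39.3% fell in polysome RNA, and 19.1% rose and 39.0% fell in occupancy. SLBP, the stem-loop binding protein, had a total RNA slope of -0.03 ± 0.02 log2 units per level. It fell in polysome RNA by 0.12 ± 0.05 (limma, adjusted p = 0.0450), but not in the fit with centred libraries (adjusted p = 0.243). NPAT, the coactivator of histone genes, rose in occupancy by 0.30 ± 0.08 and CSTF3, a cleavage factor, by 0.21 ± 0.05. CPSF1 and SYMPK, parts of the cleavage and polyadenylation machinery, fell by 0.34 ± 0.06 and 0.30 ± 0.06. The median occupancy slope of the 16 was -0.07, that of all genes also -0.07.

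Histone chaperones, which carry and deposit histones, were measured in 20 of 22 cases. In total RNA 0 were called by limma (2 at an unadjusted p below 0.05; 0 by the count test), in polysome RNA 3 rose and 10 fell, where 61.1% of all genes were called, and in occupancy 4 rose and 10 fell, where 58.1% were. With centred libraries 6 rose and 9 fell in polysome RNA and 7 rose and 8 fell in occupancy, and the count test gave 8 and 9, and 7 and 8. CHAF1A, a subunit of the chromatin assembly factor CAF-1, fell in occupancy by 0.37 ± 0.06 log2 units per level (limma, adjusted p = 0.00319). DAXX, UBN1 and SSRP1, chaperones of H3.3 and of H2A-H2B, fell by 0.30 ± 0.05, 0.35 ± 0.06 and 0.28 ± 0.06. HAT1, which acetylates new H4, rose by 0.37 ± 0.08. Without the X4 libraries no gene of these lists passed in polysome RNA or occupancy, and without X0 none passed in polysome RNA. In those 3 fits 0 genes of the whole table passed. In occupancy without X0, 1674 of all genes passed, 163 upward and 1511 downward. There 0 replacement histones rose and 2 fell. Of the factors that process messenger RNA 0 rose and 2 fell, and of the chaperones 1 rose and 4 fell. The occupancy rises of H2AFZ, NPAT and CSTF3 were thus lost without X0.

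NIH3T3 cells give data on graded LIN28B that did not enter the choice of HIST1H2BJ. In total RNA the mouse Lin28b gene was covered by 1, 1, 1, 9 and 42 reads, X0 first. In polysome RNA it was covered by 1, 3, 4, 13 and 42 reads. Whether these reads measure the level of LIN28B is not known, since the species of that transgene was not given in the sources used here. All 7 fibroblast markers checked were present. Of 19 mouse H2B genes, 4 averaged at least 1 RPKM in total RNA and 8 in polysome RNA.

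No mouse H2B gene rose as HIST1H2BJ did. By limma 0 of 4 were called in total RNA and 0 of 8 in polysome RNA, with 0 and 1 at an unadjusted p below 0.05 and 0 by the edgeR count test in either fraction; 0% of all genes were called in both. Hist1h2bj, which shares the name but not necessarily the descent, stood at 0.432, 1.12, 0.672, 1.62 and 0.491 RPKM in total RNA from X0 to X4 and at 1.24, 1.04, 1.57, 1.57 and 1.36 in polysome RNA. It showed no order by level in total RNA, where it rests on 5, 9, 5, 15 and 5 reads. Hist1h2bc, the most abundant, stood at 5.81, 2.74, 4.48, 2.99 and 3.34 RPKM in total RNA and at 15.5, 8.46, 9.90, 6.74 and 4.78 in polysome RNA. It was highest at X0 in both, and its polysome slope was -0.35 ± 0.08 log2 units per level (limma, adjusted p = 0.330). Over the 8 genes X4 stood at 0.359-fold to 1.71-fold of X0 in total RNA and at 0.302-fold to 1.52-fold in polysome RNA, against 172-fold and 14.2-fold for HIST1H2BJ in HEK293A. The ends of these ranges can rest on few reads. The 1.71-fold of Hist1h2bh comes from 4 reads at X0 and 6 at X4. The 0.302-fold of Hist1h2bn comes from 13 and 3. The difference between the cell lines was not tested. NIH3T3 values were made against mm10, which does not hold the human gene. Reads of a template with the human HIST1H2BJ sequence were therefore not measured as such in NIH3T3, and these values cover mouse genes only.

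**Figure D4:**
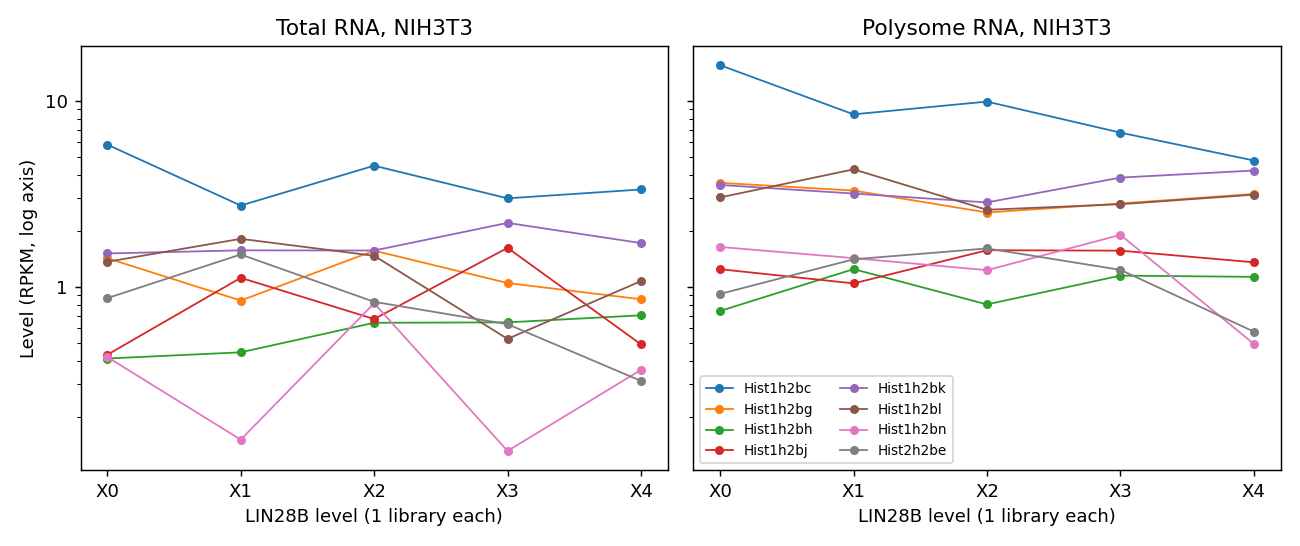
Levels of the 8 mouse H2B genes that averaged at least 1 RPKM in NIH3T3 polysome RNA, in RPKM on a log axis, by LIN28B level for total RNA (left) and polysome RNA (right). Each point is 1 library, and all 8 genes lie between 0.131 and 15.5 RPKM with no rise like that of HIST1H2BJ.

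Mouse histone genes of every family gave the same count. Of 17 measured in total RNA and 25 in polysome RNA, 0 were called by limma (1 and 10 at an unadjusted p below 0.05; 0 by the count test). Over all genes 1136 of 10348 in total RNA had an unadjusted limma p below 0.05. In polysome RNA 1020 of 11158 did, a smaller share than 10 of 25. The polysome slopes of those 10 had both signs, from -0.35 to 0.38 log2 units per level. The lowest adjusted p was that of Hist1h1c, singled out after its values were seen, whose human namesake is a member: its slope was -0.28 ± 0.05 log2 units per level in total RNA (limma, adjusted p = 0.348) and -0.32 ± 0.06 in polysome RNA (limma, adjusted p = 0.216).

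The small RNA libraries held next to no reads of these genes. Over 8 libraries of 73083 to 172995 counts, 6 of the 7 members had 0 counts in each and HIST2H2BE had 1 count, in the X3 total small RNA library without let-7. LIN28B had 2 counts, in that same library. A count of 0 allows up to 3 counts, or 17.3 to 41.0 per 1e6, so small RNA of HIST1H2BJ was not detectable at this depth with LIN28B or without. Of 115 features abundant enough to test between X3 and the knockout, none was a member. The edgeR quasi-likelihood test called 0 (0%) of them, with 6 at an unadjusted p below 0.05, and DESeq2 called 0.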

How the data were processed

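Total RNA and polysome RNA libraries were made with a polyA kit, per the labels' protocols. RPKM values were deposited per gene by the authors, with STAR and cutadapt and against hg19 (human) and mm10 (mouse), per the submitters' processing notes, which name no roles. Raw counts per gene were deposited by the authors for the 8 small RNA libraries. The counting tool, its strand and multiple-mapping settings and the annotation were not given in the sources used here. The series design speaks of 2 replicates, while each table has 1 column per level and fraction, and whether these were pooled is not given.

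RPKM values fell on whole-read steps, from which reads, gene lengths and library sizes were recovered within 0.02 of a whole number. Counting intervals at 95% are Poisson for a level, exact binomial for a fold over X0 and from Poisson variances on the log scale for ratios and gains. Trends were fitted with limma 3.58.1 (R 4.3.3) to log2(RPKM + 0.5) over genes averaging at least 1 RPKM, and adjusted by Benjamini-Hochberg at 0.05. The 5 libraries of a line are its only error, so p-values measure only the scatter of these samples, technical scatter included. Recovered reads and small RNA were tested with edgeR 4.0.16 (quasi-likelihood), small RNA also with DESeq2 1.42.0. The fits were tried on simulated reads with 100 genes changed by 0.25 and 100 by 0.5 log2 units per level. In HEK293A total RNA, polysome RNA and occupancy they recovered 94%, 82% and 41% of the smaller slopes, with 27, 19 and 17 false calls. In NIH3T3 total and polysome RNA they recovered 70% and 68%, with 7 and 13 false calls. Of the larger slopes at least 98% were recovered. Far fewer genes changed there than were called in HEK293A polysome RNA and occupancy. The members, lists and tests were chosen with earlier results of these data known. Genes were named by rule: all members, LIN28B, the 10 nearest profiles, 5 neighbours on each side, up to 4 called genes of each list in each trend by smallest p, and the measured mouse H2B genes; SLBP and Hist1h1c were added after their values were seen, as was HIST3H2A. Markers of cell type were checked for presence, and their calls in the trends are not given. Sequences and neighbours come from RefSeq (GRCh38.p14), and no coordinates of the hg19 files were used.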

Additional observations from a re-analysis of the deposited data

How the results depend on the processing

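With 1 library a level, the counts of genes called depended on single libraries. In HEK293A total RNA the 254 calls became 117 at a mean of at least 5 RPKM and 3 (without X0) to 544 (without X4) when 1 level was left out, with 119 without X3. In polysome RNA the 6368 calls ranged from 0 (without X0 or X4) to 7184, and in occupancy the 6465 calls ranged from 0 (without X4) to 7231, with 1674 without X0. Centring the libraries turned the split of polysome calls from 2267 higher and 4101 lower to 3071 and 3097, and that of occupancy from 2124 and 4341 to 3144 and 3071; the count test gave 3232 and 3191, and 3331 and 3195. In NIH3T3 0 calls became 0 to 22 in total RNA (22 without X0) and 0 to 17 in polysome RNA when 1 level was left out, 3 in polysome RNA with centring and 20 with the count test. Small RNA had 1 call with no filter, 2 with DESeq2 size factors, and 0 with any 1 library left out. The cause was not tested. The slope of HIST1H2BJ stayed positive in total RNA (1.14 to 1.84) and polysome RNA (0.73 to 0.94) and negative in occupancy (-0.93 to -0.41) under every alternative run. The polysome slopes of HIST1H1C and HIST1H2BD and the occupancy slope of HIST1H2BK changed sign under 3, 1 and 2 of their alternatives. Chosen after seeing the data, subtracting the let-7a X0 library in place of X0 gave gain ratios in total RNA of 1.51, 1.65 and 1.95 at X1, X2 and X3, and subtracting nothing gave 1.58, 1.69 and 1.96; the ratio at X4 and those in polysome RNA moved by less than their counting intervals. The let-7a difference of HIST1H2BJ in total RNA kept its size in each alternative run, while its polysome difference, near 0, turned negative with centring. Occupancy pairs both fractions by level, and no block by replicate number was fitted, since the labels give none. Among the human members with recovered reads, depth limits HIST1H2BD (25 to 96 reads) most, and HIST1H2BJ at X0 rests on 94 and 68 reads. Several mouse H2B genes rest on fewer, such as Hist1h2bh with 4 reads at X0 in total RNA.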
